A study of Mus musculus with 12 samples.

Results

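The 56 genes described here encode the nucleolar machinery that builds ribosomes, and they were followed in mouse Myc-CaP prostate cancer cells and tumors exposed to YJ1206, an oral PROTAC degrader of the cyclin-dependent kinases CDK12 and CDK13. They were chosen by name as typical MYC-driven nucleolar genes (rRNA processing, snoRNP core and RNA polymerase I), by a rule that used no measured value. Earlier results of these data were known when the list was made. All 56 were found among the 40077 genes of the cell table and the 34508 genes of the tumor table, and all 56 passed the filter on low counts in both experiments. RNA was sequenced from 12 libraries in 4 groups of 3. The cultured groups were Myc-CaP cells given DMSO and Myc-CaP cells given 1 μM YJ1206 for 24 hours. The tumor groups were subcutaneous Myc-CaP tumors of male FVB mice that received vehicle or oral YJ1206, the drug at 100 mg/kg in 3 doses per week. Myc-CaP is a line from the prostate carcinoma of a mouse whose prostate epithelium expresses a human MYC transgene, so every group carries that transgene. The 4 groups also share a single cell line, and a tumor library holds the RNA of host cells in addition to that of the grafted line.

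Ribosomes are assembled in the nucleolus around a long precursor RNA made by RNA polymerase I. Small nucleolar ribonucleoproteins (snoRNPs) methylate and pseudouridylate this precursor, and large assembly complexes cut and fold it into the small and large subunits. MYC is known to drive many of these genes, and their output tends to track growth and division in cancer cells.

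The promoters of some of these genes hold the E-box that MYC and related factors are known to bind. The motif searched was CACGTG, which is its own reverse complement, in the RefSeq promoter windows of 300 bases (250 before to 50 after the start, GRCm38.p6). It was found in 12 of the 49 genes with a window (24.5%), in 12% of the 9083 genes tested in cells that have a window and in 8.09% of all 27025 genes with a window. Of the 13 E-boxes in these genes, 10 lay at or after the start site (76.9%), against 14% of the 1319 E-boxes of genes tested in cells. The windows of Rrn3, Nop2 and Pes1 are printed because these genes are described by library further on and because they place the E-box, in capitals, far upstream, near and at the start. They run 5′ to 3′ on the plus strand from 250 bases before to 30 bases after the start, at chr16:13780449-13780728 for Rrn3, chr6:125131633-125131912 for Nop2 and chr11:3963725-3964004 for Pes1, with the E-box beginning at -215 and -48, -60 and 2 bases from the start, respectively.
Rrn3: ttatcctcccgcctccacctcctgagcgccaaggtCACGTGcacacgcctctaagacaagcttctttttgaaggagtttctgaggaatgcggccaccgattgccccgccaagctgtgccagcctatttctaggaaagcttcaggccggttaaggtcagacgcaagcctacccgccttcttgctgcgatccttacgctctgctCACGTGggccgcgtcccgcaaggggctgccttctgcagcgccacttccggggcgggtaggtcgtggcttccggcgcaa
Nop2: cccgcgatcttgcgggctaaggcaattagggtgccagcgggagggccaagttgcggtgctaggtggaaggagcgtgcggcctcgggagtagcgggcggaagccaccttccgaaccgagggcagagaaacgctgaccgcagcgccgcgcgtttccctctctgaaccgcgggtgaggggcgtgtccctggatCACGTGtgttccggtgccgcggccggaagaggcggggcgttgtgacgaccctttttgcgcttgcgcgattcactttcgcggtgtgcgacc
Pes1: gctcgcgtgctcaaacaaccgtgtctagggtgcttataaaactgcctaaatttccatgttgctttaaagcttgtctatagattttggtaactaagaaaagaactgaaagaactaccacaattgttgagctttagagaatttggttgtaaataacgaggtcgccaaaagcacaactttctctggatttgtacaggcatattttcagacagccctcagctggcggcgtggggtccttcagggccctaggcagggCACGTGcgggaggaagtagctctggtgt

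Several features of the libraries bear on the values. Total estimated counts were 18198086 to 18519926 with DMSO and 13936902 to 14869592 with YJ1206 in cells, and 15391544 to 26928365 with vehicle and 18307820 to 22418665 with YJ1206 in tumors, so that 3 counts, the floor used here, correspond to at most 0.231 CPM (TMM-scaled counts relative to library size). The library names of the DMSO cells and of the YJ1206 cells fall in separate blocks of numbers, and the labels state no batch. Anything else that differed between these blocks cannot be told apart from the drug in cells. In tumors, library 3 of each group lay between libraries 1 and 2 for most genes that separated those libraries by at least 0.5 on the log2 scale (92.7% of 2515 genes with vehicle and 89.5% of 1264 with YJ1206, against 77.4% and 70.8% in the cell groups). Of the 56 genes, taken without that limit, it did so for 41 with vehicle and 27 with YJ1206. In cells it did so for 21 with DMSO and 14 with YJ1206. The share of all genes without that limit was not computed. Because of the position of library 3, results for tumors are also given with libraries 1 and 2 alone. Of the epithelial markers, Cldn3 reached 75.3 to 79.2 CPM in DMSO cells, whereas Epcam was at 0 in all 6 cell libraries and Krt18 and Cdh1 stayed below 1 CPM.

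In cultured cells, the ribosome biogenesis genes were mostly higher after 24 hours of YJ1206. Of the 56, 36 were significantly higher, 13 were significantly lower and 7 were not called (edgeR quasi-likelihood test, Benjamini-Hochberg adjusted p under 0.05 over 11826 genes), where 37.8% of all genes tested were called higher and 38.3% lower. The median log2 fold change was 0.36 for the 56 genes and -0.017 for all genes tested. Changes ranged from -0.97 for Nop16, a large subunit assembly factor, to 1.36 for Polr1c, a subunit shared by RNA polymerases I and III, and 7 genes changed at least 2-fold. The YJ1206 libraries lay wholly above the DMSO libraries for 38 of the 56 genes and wholly below them for 13, where 38.4% and 39.2% of all genes tested did so. With 3 libraries that were close to each other in each group, most genes of the table passed the test, and the biological coefficient of variation was 0.0322 in cells against 0.139 in tumors.

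The direction in cells depended on the scaling for the genes that changed least. TMM-scaled counts, DESeq2 size factors, library totals and TPM placed the median of all genes tested at -0.017, -0.0062, -0.20 and -0.25, respectively, the last with limma on log2(TPM + 1). The median of the 56 genes was 0.36, 0.37, 0.17 and 0.043 on the same scales, so that the distance between the 56 genes and all genes moved less, from 0.37 to 0.29. The counts of higher and lower genes were 36 and 13, 36 and 11, 30 and 22, and 27 and 23, and calls on higher genes made up 49.7%, 51.1%, 36.1% and 29.2% of all calls in the table. Of all genes tested, DESeq2 called 36.3% higher and 34.8% lower, library totals 28% and 49.7%, and TPM 21.4% and 52%. Across these 4 scalings and log2(TPM + 0.1), 27 of the 56 genes were called higher in all 5 and 10 were called lower in all 5, whereas 4 genes that were higher with TMM were lower with another scaling (Dkc1, Heatr1, Wdr36 and Mrto4, named after their values were seen). The sign held under all 5 scalings for 44 of the 56 genes in cells and for all 56 in tumors, and in cells it did not hold for Ncl, Dkc1, Heatr1, Utp15, Wdr36, Noc4l, Ltv1, Noc3l, Mrto4, Grwd1, Polr1b and Ubtf.

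**Figure D1:**
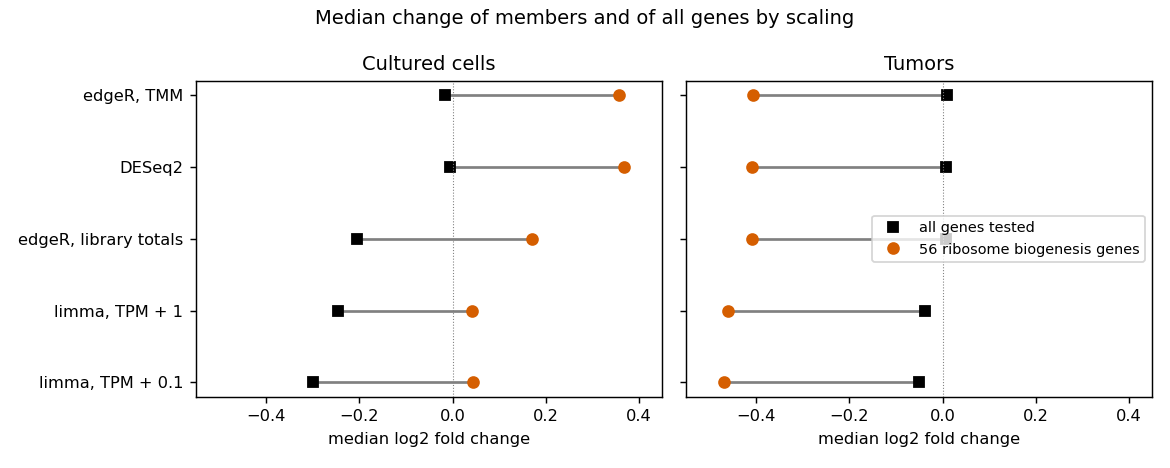
Median log2 fold change with YJ1206 (horizontal axis) of the 56 ribosome biogenesis genes (circles) and of all genes tested (squares) under 5 scalings (rows), in cells (left) and tumors (right). In cells both medians shift to the left with library totals and TPM, and the circle stays to the right of the square. In tumors the circle lies between -0.47 and -0.41 in all 5 rows.

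In tumors the same genes were lower. With YJ1206, 50 of the 56 were significantly lower, 0 were significantly higher and 6 were not called, where 14.9% of the 15558 genes tested were called lower and 11.9% higher. DESeq2 called 1 gene higher, against 12.2% of all genes, and 54 of the 56 had an unadjusted p under 0.05 in either direction with edgeR, as did 39.8% of all genes tested. The median log2 fold change was -0.41 for the 56 genes and 0.0091 for all genes tested, and 54 of the 56 had a negative value. The changes were small and even, from -0.70 for Mybbp1a, a nucleolar MYB-binding protein, to 0.27 for Nop10, and 0 genes changed 2-fold. The YJ1206 tumors lay wholly below the vehicle tumors for 53 of the 56 genes and wholly above them for 1, where 22.8% and 21.8% of all genes tested did so.

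The tumor calls rested on the number of libraries more than the direction did. With libraries 1 and 2 of each group alone, 0 of the 56 genes and 1 gene of the whole table passed edgeR's adjusted p, whereas 42 of the 56 had an unadjusted p under 0.05, against 19.6% of all genes tested, 54 stayed negative and the median was -0.40. Without vehicle library 3 the count of lower genes was 34, and without YJ1206 library 3 it was 32, while the share of all genes called lower fell from 14.9% to 7.42% and 6.96%. Leaving out each library in turn gave 6 fits, and 31 of the 50 calls held in all of them. The calls of Nhp2, Npm3, Nop14, Bop1, Nop16 and Ddx56 held in 2 of the 6, and those of Wdr36, Noc4l, Nip7 and Nle1 in 1. In the YJ1206 tumors all 10 markers of dividing cells also fell, with a summed level of 1870 to 2090 CPM with vehicle and 447 to 906 with YJ1206, and Mki67 went from 653 to 716 CPM down to 108 to 283. Markers of skeletal muscle summed to 2470, 112 and 1520 CPM in vehicle tumors 1 to 3 and to 21 to 23.4 with YJ1206, those of fibroblasts to 763 to 2320 and 536 to 1290, and those of macrophages to 159 to 254 and 222 to 304. The part of these cell types in the fall of the ribosome biogenesis genes was not tested, and in bulk tumors fewer cells of a type and less RNA per cell cannot be told apart. In cultured cells the lists for leukocytes, stroma, muscle and fat each summed to at most 10.5 CPM per library, the highest being fibroblasts, and that of macrophages went from 0.667 to 1.34 CPM up to 3.25 to 5.38, with 1 gene called higher. There the dividing-cell list summed to 3780 to 3850 CPM with DMSO and 4070 to 4170 with YJ1206, with 5 of 10 higher and 4 lower.

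**Figure D2:**
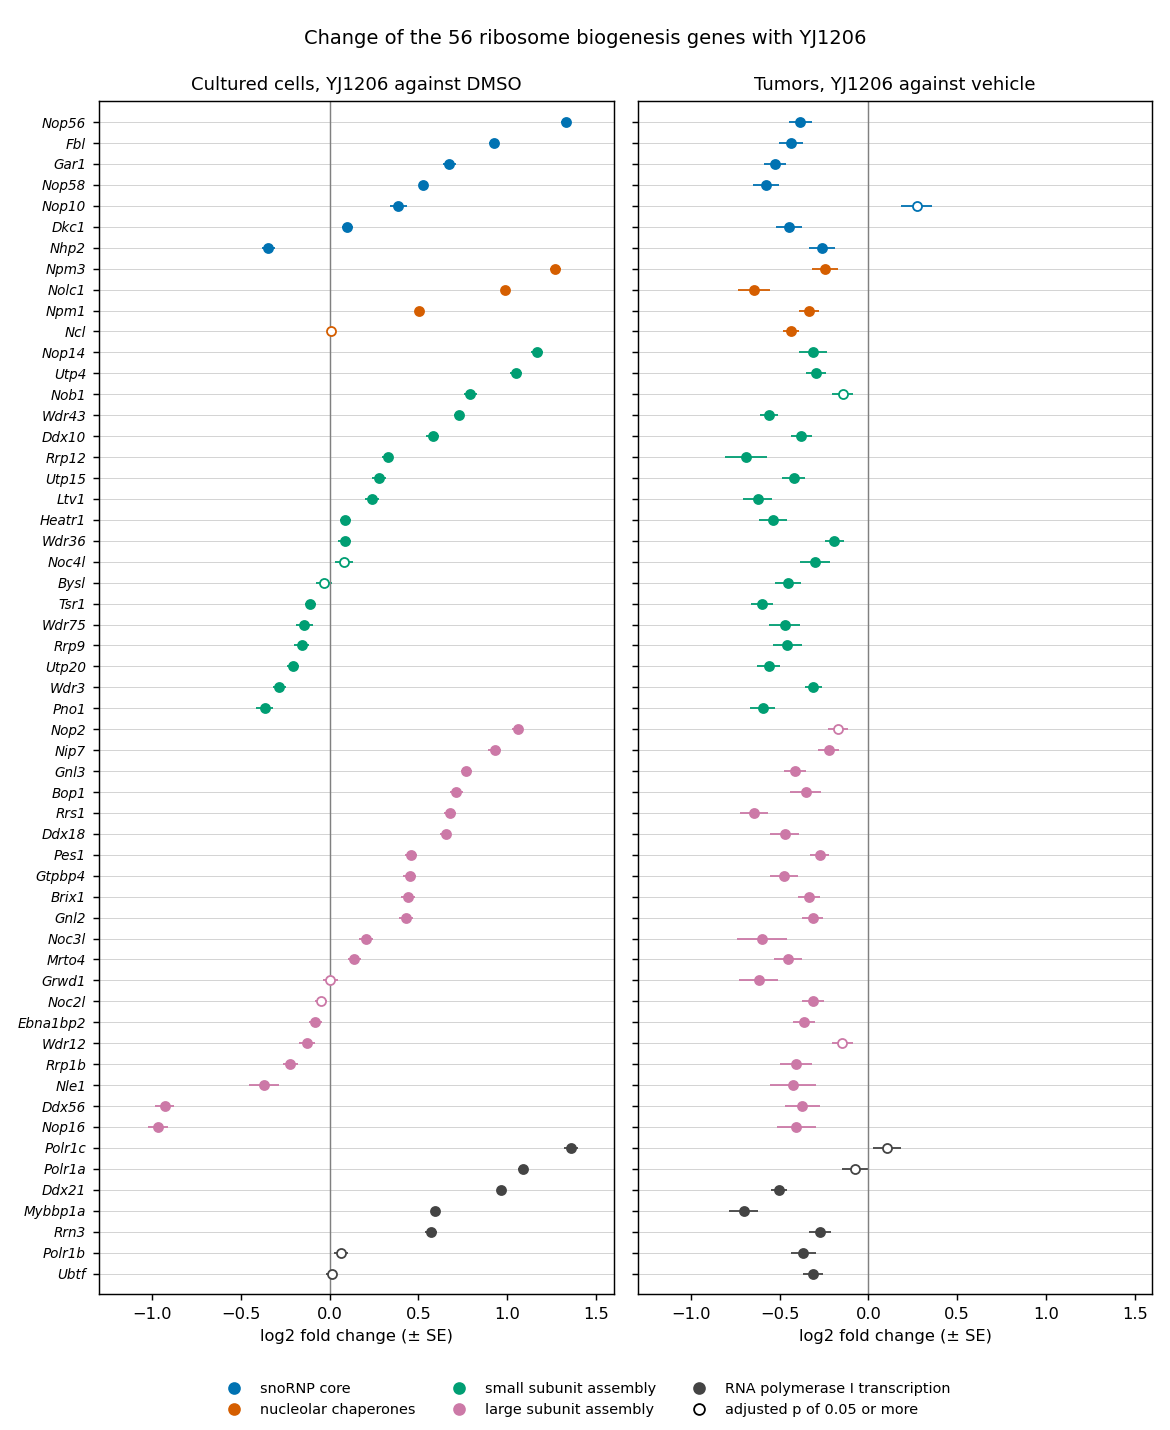
Log2 fold change with YJ1206 (horizontal axis, ± SE from edgeR, 3 libraries per group) of each of the 56 genes (rows) in cells (left) and tumors (right), coloured by role and ordered within a role by the change in cells. Open circles did not pass the adjusted p. The points spread from -0.97 to 1.36 in cells and lie between -0.70 and 0.27 in tumors.

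A direct test of the difference between the experiments used all 12 libraries and the 15423 genes that both tables hold and that passed the filter. The effect of YJ1206 in tumors was significantly below that in cells for 48 of the 56 genes and significantly above it for 2, where 26% of all genes tested were below and 20.8% above. The median difference was -0.79 for the 56 genes and -0.011 for all genes tested. By their calls, 31 genes were higher in cells and lower in tumors, 12 were lower in both, 7 were lower in tumors and not called in cells, 5 were higher in cells and not called in tumors, and 1 was lower in cells and not called in tumors. Across the 56 genes the changes in cells and tumors had a Pearson correlation of 0.21 and a Spearman correlation of 0.17, a description over genes that are not independent replicates. With libraries 1 and 2 of each tumor group alone the test called 46 genes below and 2 above, against 22.6% and 16.2% of all genes. The test estimated the spread over all 4 groups together, although the biological coefficient of variation was 0.0322 in cells and 0.139 in tumors. Its counts therefore draw on the closeness of the cell libraries and do not show how firm the tumor side is. On these tumor libraries alone, 0 of the 56 genes passed the adjusted p. With library totals it called 39 below and 4 above and the median was -0.57, where 18.7% of all genes were below and 29.9% above with a median of 0.199. Cells and tumors differed in dose, time, host tissue and preparation at once, and these cannot be told apart.

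**Figure D3:**
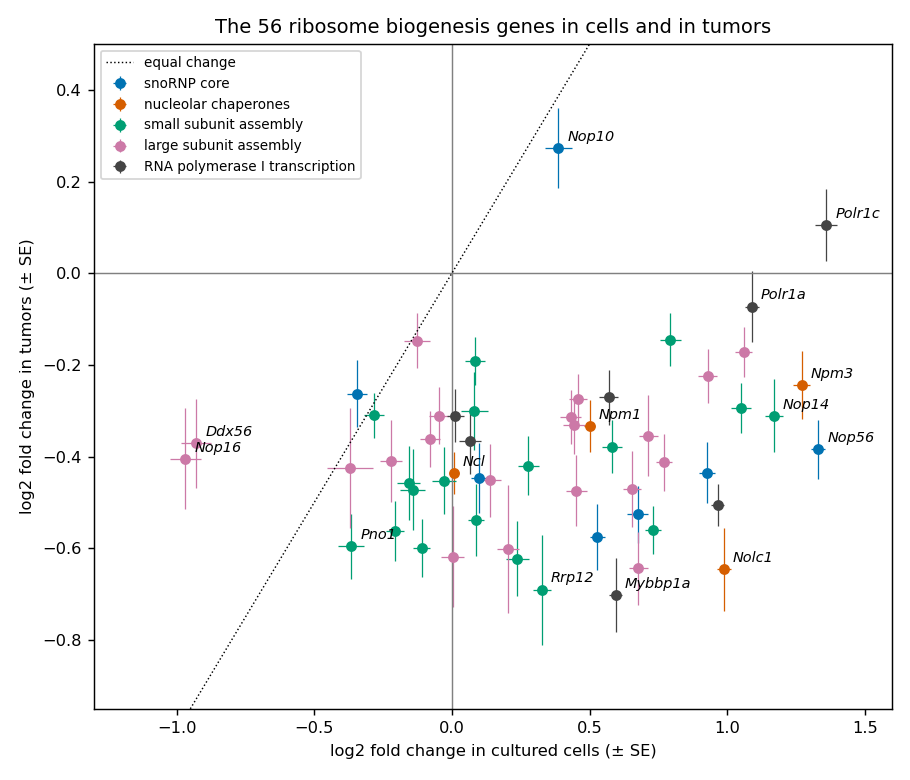
Log2 fold change with YJ1206 of the 56 genes in cultured cells (horizontal axis) and in tumors (vertical axis), ± SE, coloured by role. The dotted line marks equal change. Of the 56 points, 53 lie below it, and Nop16 and Ddx56 stand apart at the left.

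The snoRNP core guides chemical modification of ribosomal RNA, in box C/D particles (Fbl, Nop56, Nop58) and box H/ACA particles (Dkc1, Gar1, Nhp2, Nop10). In cells 6 of these 7 genes were higher and 1 was lower, where 37.8% and 38.3% of all genes tested were. The median log2 fold change was 0.53, and it became 0.342 with library totals and 0.216 with TPM. In tumors 6 were lower, with a median of -0.44, where 14.9% of all genes tested were lower. Nop56, a scaffold of box C/D particles, was at 392, 396 and 386 CPM with DMSO and at 965, 974 and 1020 with YJ1206. These groups were far apart, at 2.52-fold (log2 fold change 1.33 ± 0.026 SE, adjusted p = 3.95e-25, edgeR). In tumors Nop56 was at 303, 264 and 291 CPM with vehicle and 216, 220 and 222 with YJ1206, again without overlap but in the other direction (-0.38 ± 0.064, adjusted p = 0.00587). Fbl, the methyltransferase fibrillarin, went from 214, 222 and 223 CPM to 415, 416 and 421 in cells, a 1.9-fold rise (adjusted p = 1.03e-20). It went from 138, 128 and 138 CPM to 101, 105 and 93.1 in tumors, where every YJ1206 library was below every vehicle library (-0.43 ± 0.066, adjusted p = 0.00419). Nop58, the partner of Nop56, rose 1.44-fold in cells, from 427 to 442 CPM up to 604 to 641. It was the snoRNP gene with the lowest change in tumors, at 260, 221 and 241 CPM with vehicle and 156, 166 and 162 with YJ1206 (-0.57 ± 0.072, adjusted p = 0.00239).

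The box H/ACA genes divided. Dkc1, the pseudouridine synthase dyskerin, was at 254, 246 and 260 CPM with DMSO and 269, 276 and 270 with YJ1206, and this small rise (0.10 ± 0.031, adjusted p = 0.0046) became a fall with library totals (-0.086) and with TPM (-0.16). In tumors Dkc1 fell from 132, 118 and 118 CPM to 85.2, 97.5 and 87.5 without overlap (-0.45 ± 0.076, adjusted p = 0.00616). Gar1, which joins the same particles, rose by 0.68 in cells, from 93.3 to 97.8 CPM up to 150 to 158, and had a value of -0.53 in tumors, also called. Nhp2, an RNA-binding subunit, was the snoRNP gene that fell in cells, from 163, 170 and 166 CPM to 133, 127 and 132 (-0.34 ± 0.036, adjusted p = 2.08e-09). It also fell in tumors, from 83.4, 85.3 and 85.7 CPM to 64.7, 76.7 and 70.6 (-0.26 ± 0.073, adjusted p = 0.0351), although the call was lost without vehicle library 1 or 3 and without YJ1206 library 1 or 3 (-0.276 to -0.206, adjusted p = 0.052 to 0.121). Its effect did not differ detectably between the experiments with TMM (difference 0.053 ± 0.082, adjusted p = 0.652), whereas library totals called a difference of 0.273 (adjusted p = 0.0114). Nop10, the smallest H/ACA protein, rose from 55.5, 54.3 and 56.5 CPM to 74.3, 68.4 and 74.8 in cells (0.39 ± 0.048, adjusted p = 4.44e-08), a rise that was not called with TPM (0.0639, adjusted p = 0.186, limma). It was the 1 gene of the 56 whose YJ1206 tumors all lay above the vehicle tumors, at 61.7, 73.8 and 65.3 CPM with vehicle and 74.8, 86.1 and 81.8 with YJ1206, and the difference narrowly missed the adjusted p (0.27 ± 0.088, adjusted p = 0.0565). DESeq2 called Nop10 higher in tumors (0.27), as did edgeR without vehicle library 2 (0.35).

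Among the nucleolar chaperones (Ncl, Npm1, Npm3, Nolc1), 3 of 4 were higher in cells, where 37.8% of all genes tested were. All 4 were lower in tumors, where 14.9% of all genes tested were. The median log2 fold changes were 0.74 in cells and -0.38 in tumors. The median in cells was 0.558 with library totals and 0.409 with TPM, and both called Ncl lower. Ncl, nucleolin, the major RNA-binding protein of the nucleolus, was not called in cells, at 2970, 2990 and 2970 CPM with DMSO and 3020, 2980 and 2970 with YJ1206. The groups overlapped (0.0075 ± 0.018, adjusted p = 0.721), although library totals gave a lower call at -0.18. In tumors the same gene separated cleanly, at 1610 CPM in each vehicle library and at 1190, 1190 and 1180 with YJ1206 (-0.44 ± 0.046, adjusted p = 0.00158). Npm1, nucleophosmin, a histone and ribosomal protein chaperone, was at 2200, 2210 and 2140 CPM with DMSO and at 3040, 3110 and 3110 with YJ1206, a 1.42-fold rise (adjusted p = 1.7e-18). In tumors it fell from 1450, 1320 and 1400 CPM to 1130, 1090 and 1100 (-0.33 ± 0.056, adjusted p = 0.00598). Npm1 has processed pseudogenes in the mouse genome, and how the estimated counts were divided among these copies was not tested.

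Npm3, a relative of nucleophosmin, and Nolc1, a chaperone that shuttles snoRNPs between nucleolus and Cajal bodies, changed more. Npm3 rose 2.42-fold in cells, from 147, 149 and 149 CPM to 355, 357 and 366 (1.27 ± 0.031, adjusted p = 4.16e-23). Its change in tumors was the smallest of the 4 chaperones, from 114, 104 and 112 CPM to 85, 100 and 93.2 (-0.24 ± 0.075, adjusted p = 0.0483), and it was not called without vehicle library 1 or 3 or without YJ1206 library 1 or 3 (-0.252 to -0.187). Nolc1 rose 1.98-fold in cells, from 589, 599 and 588 CPM to 1140, 1170 and 1210. It fell from 299, 239 and 270 CPM to 161, 181 and 173 in tumors without overlap (-0.65 ± 0.091, adjusted p = 0.00344), so that its effect in tumors lay 1.66 below that in cells on the log2 scale (difference -1.66 ± 0.10, adjusted p = 5.01e-08).

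**Figure D4:**
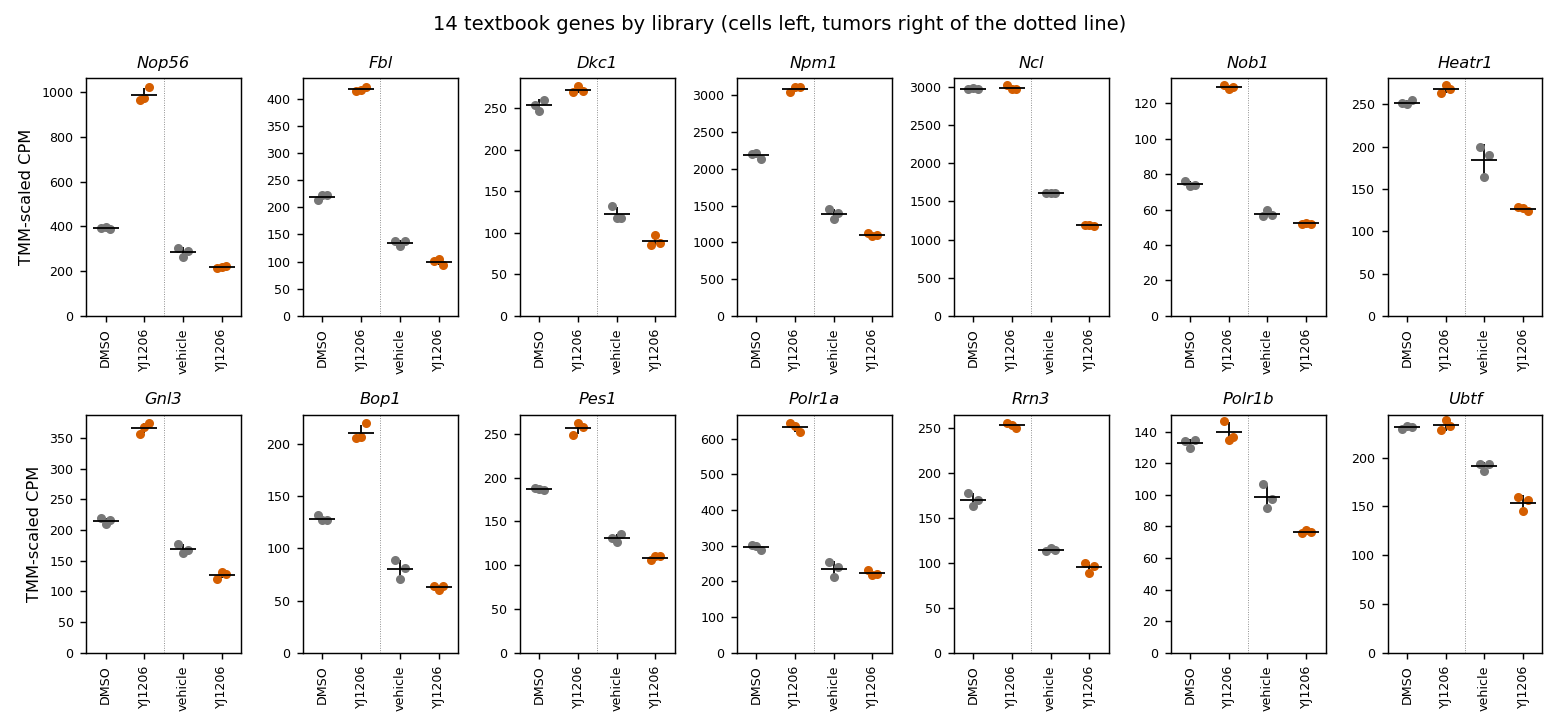
TMM-scaled CPM (vertical axis, from 0) of 14 textbook nucleolar genes in each library, with the group mean and SD (n = 3). Cells are to the left of the dotted line (DMSO grey, YJ1206 orange) and tumors to the right (vehicle grey, YJ1206 orange), and the 2 experiments were scaled separately. Nop56 and Polr1a rise most in cells, and the groups of Ncl and Ubtf overlap in cells and separate in tumors.

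Small subunit assembly genes encode the SSU processome, which cuts the early precursor, and the factors that finish the small subunit in the cytoplasm. They were the most mixed group in cells, where 10 of 18 were higher and 6 lower (55.6% and 33.3%). Of all genes tested, 37.8% were higher and 38.3% lower, so the share of lower genes was near that of all genes. The median of the group was 0.087, and it was negative with library totals (-0.0997) and TPM (-0.16). TPM called 5 of these genes higher, where it called 21.4% of all genes higher. In tumors 17 of the 18 were lower, with a median of -0.46, where 14.9% of all genes tested were lower. The YJ1206 libraries lay wholly below the vehicle libraries for all 18, as they did for 22.8% of all genes tested. Nop14, an SSU processome protein, rose from 112, 111 and 111 CPM to 249, 254 and 246 in cells, the largest change of the group (1.17 ± 0.033, adjusted p = 1.82e-21). In tumors it fell from 100, 83.5 and 93.2 CPM to 78, 72.2 and 72.7 (-0.31 ± 0.08, adjusted p = 0.0262), a call that was lost without vehicle library 1 or 3 and without YJ1206 library 2 or 3 (-0.307 to -0.25, adjusted p = 0.0532 to 0.11). Nob1, the endonuclease that makes the last cut of the small subunit RNA, rose from 76.3, 73.3 and 73.7 CPM to 130, 128 and 129 in cells (0.79 ± 0.038, adjusted p = 1.4e-16). Its tumor groups did not overlap, at 56.6, 59.5 and 56.9 CPM with vehicle and 51.9, 52.6 and 51.9 with YJ1206, but the difference did not pass the test (-0.145 ± 0.058, adjusted p = 0.107).

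Heatr1, a large scaffold of the SSU processome also linked to RNA polymerase I, went from 251, 250 and 255 CPM to 263, 273 and 268 in cells. That difference passed the test with TMM (0.088 ± 0.03, adjusted p = 0.0101) and turned to -0.098 with library totals. In tumors Heatr1 fell clearly, from 199, 164 and 190 CPM to 129, 127 and 124 (-0.54 ± 0.078, adjusted p = 0.00374). Pno1, which holds Nob1 in check until late assembly, fell in both settings. It went from 119, 112 and 115 CPM to 82.2, 95.8 and 91.2 in cells (-0.37 ± 0.046, adjusted p = 4.78e-08) and from 57.6, 51.3 and 55.8 to 35.6, 36.4 and 36.9 in tumors (-0.596 ± 0.07, adjusted p = 0.00208). The difference between the experiments was near the threshold for Pno1, and 7 of the 12 fits without 1 library did not call it. Rrp12, an export factor of the pre-ribosome, rose in cells from 199, 201 and 194 CPM to 252, 248 and 244 (0.33 ± 0.032, adjusted p = 3.71e-10), but not with TPM (0.0213, adjusted p = 0.569, limma). It had the lowest tumor change of the group, from 140, 105 and 133 CPM to 72.2, 85.2 and 76.6 (-0.69 ± 0.12, adjusted p = 0.00597). Across the other 13 genes, the changes in cells ran from -0.28 for Wdr3 to 1.05 for Utp4, and those in tumors from -0.62 for Ltv1 to -0.19 for Wdr36.

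Utp4 and Wdr43 belong to the t-UTP part of the SSU processome, which joins the precursor early, and they show the reversal between experiments by library. Utp4 was at 172, 166 and 160 CPM with DMSO and 357, 340 and 331 with YJ1206, and at 114, 109 and 109 with vehicle and 91.3, 92.4 and 87.1 with YJ1206 in tumors. Wdr43 was at 263, 269 and 269 CPM with DMSO and 439, 452 and 438 with YJ1206, and at 209, 194 and 206 with vehicle and 136, 138 and 139 with YJ1206 in tumors. Neither gene overlapped between groups in either experiment. Within the same t-UTP part, Utp15 rose less (0.28 in cells) and Wdr75 fell (-0.14), neither of them called with TPM, and both were lower in tumors (-0.42 and -0.47). The 6 genes of the group called lower in cells were Pno1, Wdr3, Utp20 (-0.21), Rrp9 (-0.16), Wdr75 and Tsr1 (-0.11), and all 6 were also lower in tumors, with Tsr1 at -0.60.

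Large subunit assembly genes include the PeBoW complex (Pes1, Bop1, Wdr12), GTPases and RNA helicases. In cells 12 of 20 were higher and 6 lower (60% and 30%), where 37.8% and 38.3% of all genes tested were. The median was 0.32, which fell to 0.13 with library totals and 0.0103 with TPM. In tumors 18 were lower with a median of -0.39, where 14.9% of all genes tested were lower. The YJ1206 libraries lay wholly below the vehicle libraries for all 20, as they did for 22.8% of all genes tested. The PeBoW subunits did not change alike in cells. Pes1 rose from 188, 187 and 186 CPM to 249, 263 and 258 (0.46 ± 0.032, adjusted p = 4.3e-13), and Bop1 rose from 132, 127 and 127 to 206, 207 and 220 (0.71 ± 0.036, adjusted p = 3.9e-16). Wdr12 was at 85.1, 78.1 and 79.5 CPM with DMSO and at 77.4, 75.1 and 69.4 with YJ1206, a small fall (-0.13 ± 0.047, adjusted p = 0.0164) that was not called by DESeq2 (-0.118), without DMSO library 1 (-0.0932) or without YJ1206 library 3 (-0.08). In tumors Pes1 fell from 131, 127 and 136 CPM to 106, 110 and 110 (-0.27 ± 0.054, adjusted p = 0.0103) and Bop1 from 88.6, 70.9 and 81.4 to 63.6, 60.5 and 64.3 (-0.35 ± 0.088, adjusted p = 0.024). Wdr12 did not pass the test there, at 86.3, 82.1 and 79 CPM with vehicle and 74.3, 77 and 72.3 with YJ1206 (-0.15 ± 0.06, adjusted p = 0.115), although the groups did not overlap. The tumor call of Bop1 was lost without vehicle library 3 and without any 1 of the YJ1206 libraries (-0.376 to -0.331), and that of Pes1 without library 3 of either group (-0.249 and -0.289). TPM called Wdr12 lower in tumors (-0.26, adjusted p = 0.043, limma).

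The range of the large subunit group in cells was set by Nop2 at the top and Nop16 at the bottom. Nop2, a methyltransferase of the large subunit RNA, rose 2.09-fold from 193, 202 and 190 CPM to 403, 403 and 415 (1.06 ± 0.031, adjusted p = 2.09e-21). In tumors its groups did not overlap, at 104, 97.4 and 102 CPM and 89, 92 and 88.5, but the adjusted p was 0.0541 (-0.17 ± 0.055). Nop16 went from 57.6, 59.4 and 58.8 CPM to 29.3, 29.3 and 31.3 in cells (-0.97 ± 0.056, adjusted p = 7.84e-15). It fell less in tumors, from 47.5, 48.7 and 47.6 CPM to 30.8, 42.1 and 35.6 (-0.405 ± 0.11, adjusted p = 0.0356), a call that was lost without vehicle library 1 or 3 and without YJ1206 library 1 or 3 (-0.413 to -0.304, adjusted p = 0.0606 to 0.121). Nop16 and the helicase gene Ddx56, named after its values were seen, were the 2 genes whose effect in tumors was significantly above that in cells (differences 0.53 ± 0.13 and 0.53 ± 0.11, adjusted p = 0.00408 and 0.00184). Ddx56 went from 67.6, 67.5 and 64.6 CPM to 34.1, 36.8 and 33.9 in cells, with no overlap.

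Gnl3, nucleostemin, a GTPase abundant in dividing progenitor cells, rose 1.71-fold in cells, from 219, 210 and 216 CPM to 357, 368 and 374 (adjusted p = 1.64e-18). In tumors it fell from 178, 162 and 167 CPM to 121, 132 and 128 (-0.41 ± 0.062, adjusted p = 0.00423). Rrs1, which brings 5S RNA into the large subunit, rose from 138, 133 and 137 CPM to 211, 219 and 221 in cells (0.68 ± 0.034, adjusted p = 4.43e-16). It had the lowest tumor change of the group, from 76.6, 65.3 and 74.9 CPM to 47.7, 44.7 and 46.2 (-0.64 ± 0.079, adjusted p = 0.00226). Both genes separated the groups in both experiments, in opposite directions. The tumor count of this group depended on single libraries more than that of the small subunit genes. It was 9 lower without vehicle library 3 and 8 without YJ1206 library 3, where 7.42% and 6.96% of all genes tested were lower. Among the remaining large subunit genes, the rises in cells were those of Nip7 (0.93), the helicase gene Ddx18 (0.65), the GTPase genes Gtpbp4 (0.45) and Gnl2 (0.43), Brix1 (0.44), Noc3l (0.20) and Mrto4 (0.14). Those called lower in cells were Nle1 (-0.37), Rrp1b (-0.22) and Ebna1bp2 (-0.08), the last in only 1 of the 6 fits without 1 library, while Noc2l (-0.047) and Grwd1 (0.0028) were not called. All of these genes were called lower in tumors, from -0.62 for Grwd1 and -0.60 for Noc3l to -0.22 for Nip7. Nle1 was near the threshold there, at 23.7, 18.5 and 18.7 CPM with vehicle and 14.7, 16.7 and 13.9 with YJ1206 (adjusted p = 0.0496).

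RNA polymerase I transcription was represented by subunits of the enzyme (Polr1a, Polr1b, Polr1c), its initiation factors (Ubtf, Rrn3) and the regulators Ddx21 and Mybbp1a. In cells 5 of the 7 were higher and 0 lower (median 0.595), where 37.8% and 38.3% of all genes tested were. In tumors 5 were lower and 0 higher (median -0.31), where 14.9% and 11.9% of all genes tested were. With library totals and with TPM, 2 of the 7 were lower in cells (Polr1b and Ubtf), where 49.7% and 52% of all genes tested were lower. The median of the 7 was 0.408 and 0.289, respectively. Polr1a, the largest catalytic subunit, rose 2.13-fold in cells from 302, 300 and 288 CPM to 643, 635 and 619 (1.09 ± 0.027, adjusted p = 8.49e-23). In tumors its groups overlapped, at 255, 211 and 239 CPM with vehicle and 233, 218 and 220 with YJ1206 (-0.073 ± 0.078, adjusted p = 0.533). Polr1b, the other subunit of the catalytic center, was at 134, 130 and 135 CPM with DMSO and 147, 135 and 137 with YJ1206 and was not called (0.066 ± 0.039, adjusted p = 0.123), although library totals (-0.12, adjusted p = 0.00701) and TPM (-0.244, adjusted p = 0.00203, limma) called it lower. It fell in tumors, from 107, 91.4 and 97.7 CPM to 75.9, 77.7 and 76.5 (-0.37 ± 0.071, adjusted p = 0.00979), a call lost without YJ1206 library 3 (-0.368, adjusted p = 0.0542). Polr1c had the largest rise of the 56 genes, from 55, 55 and 55.1 CPM to 136, 144 and 143 in cells (2.56-fold, adjusted p = 2.72e-21), and its tumor groups overlapped at 54.3, 47.6 and 51.3 CPM against 51.2, 57.2 and 56.3 (0.105 ± 0.078, adjusted p = 0.36).

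The initiation factors differed from each other in cells. Ubtf, the upstream binding factor that keeps ribosomal DNA open, was at 229, 233 and 232 CPM with DMSO and 228, 239 and 233 with YJ1206, with overlapping groups (0.012 ± 0.031, adjusted p = 0.733), and it was called lower with library totals (-0.174) and TPM (-0.273). In tumors Ubtf fell from 194, 186 and 194 CPM to 160, 145 and 157 (-0.31 ± 0.058, adjusted p = 0.00831), a call lost without vehicle library 3 (-0.304, adjusted p = 0.0506). Rrn3, the factor that couples RNA polymerase I to the promoter, rose from 177, 163 and 170 CPM to 255, 253 and 249 in cells (0.57 ± 0.034, adjusted p = 1.87e-14). In tumors Rrn3 fell from 113, 116 and 114 CPM to 99.6, 88.5 and 96.6 (-0.27 ± 0.061, adjusted p = 0.0169), not called without vehicle library 3 or without YJ1206 library 2 or 3 (-0.288 to -0.225). Mybbp1a rose from 770, 783 and 741 CPM to 1140, 1160 and 1160 in cells (0.595 ± 0.024, adjusted p = 3.25e-18). Its tumor libraries had the lowest log2 fold change of all 56 genes, from 505, 620 and 548 CPM to 354, 338 and 337 (-0.70 ± 0.081, adjusted p = 0.00191). Ddx21, a helicase that acts at RNA polymerase I and II genes, also falls outside the rule for named genes. It was at 602, 603 and 601 CPM with DMSO and 1140, 1180 and 1200 with YJ1206. In tumors it was at 360, 361 and 355 with vehicle and 252, 252 and 254 with YJ1206. Its libraries were nearly level within each group, and its difference between experiments, -1.50 ± 0.049, had the smallest adjusted p of the 56 genes (8.81e-10).

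The tumor count of the RNA polymerase I group was 3 rather than 5 without vehicle library 3 and without YJ1206 library 3. In those fits 7.42% and 6.96% of all genes tested were lower.

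**Figure D5:**
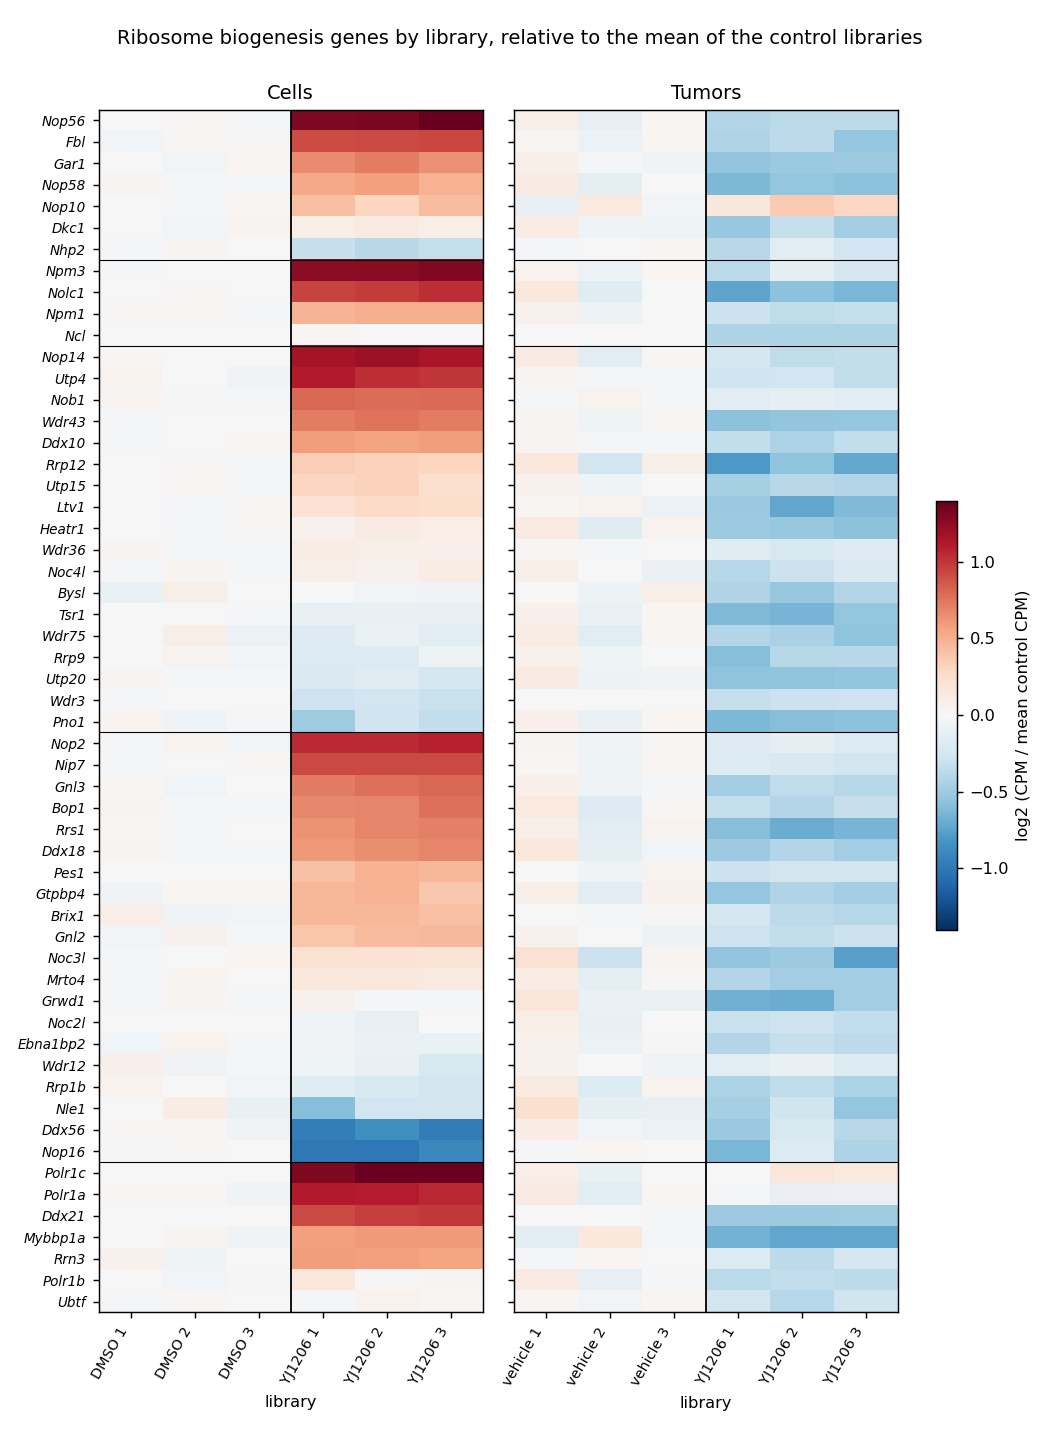
Level of each of the 56 genes (rows, grouped by role) in each library (columns), as log2 of CPM over the mean of the control libraries (DMSO for cells, vehicle for tumors). Red is higher and blue lower. The 3 YJ1206 columns are alike within each experiment, red for most rows in cells and blue for nearly all rows in tumors.

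The estimated counts of the mouse Myc gene moved in the same directions. It was at 667, 709 and 690 CPM with DMSO and at 1870, 1950 and 2000 with YJ1206 (2.82-fold, adjusted p = 3.23e-26), with the groups far apart. In tumors it was at 1260, 1440 and 1320 CPM with vehicle and 896, 867 and 904 with YJ1206 (-0.59 ± 0.063, adjusted p = 0.00167). Reads of the human MYC transgene were not assigned separately here, so whether the values of Myc include some of them was not tested.

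A further 124 genes of the pathway were counted. In cells 75 were higher (60.5%) and 33 lower (26.6%, median 0.23), where 37.8% of all genes tested were higher and 38.3% lower. In tumors 0 were higher and 66 lower (53.2%, median -0.28), where 11.9% of all genes were higher and 14.9% lower. Of the 124, 3 lay wholly above and 86 wholly below the vehicle tumors, as did 21.8% and 22.8% of all genes tested. The largest rises in cells were those of Nufip1, a box C/D assembly factor (1.46), Ngdn, an SSU processome protein (1.30), and Las1l, of the complex that removes the second internal spacer (1.10). The lowest values in cells were those of Wdr46 (-0.87) and Tbl3 (-0.86), also SSU processome proteins, and of the helicase gene Ddx51 (-0.84). Exosome and turnover genes, which degrade the spacers, had a negative median in cells, with 4 of 13 higher and 8 lower (-0.36), and in tumors 9 of the 13 were lower. The lowest values in tumors were those of Tcof1, the gene for treacle, which links UBF to rRNA synthesis (-1.06), Lyar, a nucleolar growth regulator (-1.04), and Exosc8, a subunit of the exosome ring (-0.81).

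Levels per length show how unevenly the group is expressed. In TPM, a per-length measure, Npm1 led in all 4 groups at a mean of 3450 with DMSO, 3970 with YJ1206 in cells, 1930 with vehicle and 1470 with YJ1206 in tumors, and it held 27.2% to 29.3% of the summed TPM of the 56 genes. Behind Npm1 in DMSO cells came Ncl at 674, Nop56 at 586 and Nop58 at 529, while in YJ1206 cells Nop56 at 986 and Npm3 at 742 stood above Nop58 at 621 and Ncl at 573. In vehicle tumors Nop56 (372) and Ncl (362) were close, with Nop58 at 278. The lowest mean was that of Gtpbp4 in 3 of the 4 groups, at 24.4 with DMSO, 18.5 with vehicle and 12.6 in YJ1206 tumors. The 56 genes together summed to 11730 to 11880 TPM with DMSO and 13740 to 13950 with YJ1206 in cells, and to 6614 to 7442 with vehicle and 5171 to 5229 with YJ1206 in tumors. As a share of estimated counts they held 1.57% to 1.58%, 1.9% to 1.92%, 0.903% to 0.98% and 0.71% to 0.715% in the same order. These sums did not overlap between the groups of either experiment, and without Npm1 they ran from 8294 to 8379, 9811 to 9910, 4834 to 5400 and 3709 to 3746 TPM.

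Promoter motifs, host genes and gene length were set beside these changes as a description, with no test. The median log2 fold change of genes with and without the E-box was 0.35 and 0.20 in cells and -0.56 and -0.38 in tumors. Of the 56 genes, 7 (12.5%) hold snoRNA genes within their span in GENCODE vM21, 21 snoRNA genes in all, against 1.77% of the genes tested in cells. The hosts are Nop56 with 5, Nop58 with 4, Ncl, Wdr43 and Gnl3 with 3 each, Tsr1 with 2 and Dkc1 with 1, and the guide RNAs within introns of such hosts are processed into snoRNPs. The median log2 fold change of these 7 genes was 0.53 in cells and -0.45 in tumors, and that of the other genes was 0.33 and -0.37. The 56 genes had a median span of 13.4 kb (1.3 to 149.4 kb) against 21.7 kb for genes tested in cells. The Spearman correlation of span and change across the 56 genes was -0.01 in cells and -0.099 in tumors. With snoRNA and miRNA genes left out, exons of 25 of the 56 overlap a gene on the opposite strand and 0 overlap one on the same strand. Overlap of exons with snoRNA or miRNA genes was not counted. Whether the estimation used the strand was not given in the sources used here.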

How the data were processed

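RNA from Myc-CaP cells and tumors was sequenced after enzymatic removal of ribosomal RNA, although polyA RNA is named as the molecule of the cell samples. The authors deposited, per experiment, a table of estimated counts per gene and a table of TPM, both without replicates pooled. The submitters' processing notes name kallisto and GRCm38 (mm10). The annotation, the strand setting and versions are not given in the sources used here. Samples were grouped by their titles, and 0 columns belonged to no sample.

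Estimated counts were first rounded to integers, since the design had assumed counts, filtered with filterByExpr, scaled by TMM and tested with edgeR 4.0.16 (glmQLFit and glmQLFTest, R 4.3.3) separately in cells and tumors, and as an interaction over all 12 libraries. Adjusted p-values are Benjamini-Hochberg over all genes tested, with a threshold of 0.05. CPM are TMM-scaled and were scaled separately in the 2 experiments. Alternatives were DESeq2 1.42.0, library totals, no filter, limma 3.58.1 on log2 of the deposited TPM plus 1 or 0.1, a replicate block, each library left out, and tumor libraries 1 and 2 alone. The main, DESeq2, library-total and replicate-block fits of each experiment and the main interaction fit were tested on simulated data. The limma fits on TPM, the fits without the filter and the alternative interaction fits were not.

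The members and lists were chosen with earlier results of these data known. Named genes were 14 textbook members, the member with the highest and the lowest change in each role and experiment, the 3 largest rises and falls among other pathway genes (adjusted p under 0.05, at least 5 CPM), and Myc. Values by library were also given outside this rule for Utp4, Wdr43, Ddx21, Ddx56 and Nle1. No other pathway gene was called higher in tumors. Some markers of the cell type lists are not reported here. Promoter windows came from RefSeq (GRCm38.p6) by symbol, for 49 of 56 genes, and gene spans from GENCODE vM21. The study describes its replicates in general as biologically independent, but the labels do not tie each library to a separate culture or animal. The p-values and the ± SE from edgeR therefore measure the spread between these libraries only. Samples with the same replicate number did not deviate together (correlations -0.029 to 0.01), so the numbers were not taken as pairs.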

Additional observations from a re-analysis of the deposited data

Results flagged for a closer look

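The effect of YJ1206 on ribosome biogenesis genes was flagged because it differed between cells and tumors in a test of the difference itself (edgeR interaction term, adjusted p under 0.05). The difference, tumors minus cells, was positive for 2 of the 56 genes and negative for 48. Among the named snoRNP genes it was -1.75 for Nop56, -1.39 for Fbl, -1.13 for Nop58 and -0.58 for Dkc1 on the log2 scale. For the chaperones it was -1.66 for Nolc1, -1.55 for Npm3, -0.865 for Npm1 and -0.47 for Ncl. In the small subunit group it was -1.51 for Nop14, -1.05 for Rrp12, -0.97 for Nob1, -0.66 for Heatr1 and -0.26 for Pno1. The difference of Pno1 was not called in 7 of the 12 fits without 1 library, with the replicate block (-0.258, adjusted p = 0.0705), with tumor libraries 1 and 2 alone (-0.267, adjusted p = 0.0894) or with library totals (-0.0398, adjusted p = 0.769). In the large subunit group it was -1.35 for Rrs1, -1.27 for Nop2, -1.21 for Gnl3, -1.10 for Bop1 and -0.76 for Pes1, and it was positive for Nop16 at 0.53. In the RNA polymerase I group it was -1.33 for Mybbp1a, -1.28 for Polr1c, -1.20 for Polr1a, -0.87 for Rrn3, -0.46 for Polr1b and -0.355 for Ubtf, the last not called with library totals (-0.133, adjusted p = 0.112). No gene of the list was tested for a library far from the others, since every group holds 3 libraries.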

How the results depend on the processing

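In cells, library totals raised the count of lower members from 13 to 22 and both TPM fits raised it to 23, the median of the members was 0.171 with totals, 0.0426 with TPM + 1 and 0.043 with TPM + 0.1, and that of the small subunit genes turned to -0.0997, -0.16 and -0.163. The 2 TPM fits called 38 and 39 of the 124 other pathway genes higher, against 75, and 55 lower in each, against 33. Of all genes tested, TPM + 1 called 21.4% higher and 52% lower. With totals, TPM + 1 and TPM + 0.1 the change turned negative for Ncl (-0.179, -0.235, -0.235), Dkc1 (-0.0861, -0.158, -0.159), Heatr1 (-0.0984, -0.211, -0.215), Polr1b (-0.12, -0.244, -0.248) and Ubtf (-0.174, -0.273, -0.275), and without the filter for Ncl (-0.00746) and Ubtf (-0.00278). In tumors 1 member was called higher by DESeq2 and with the replicate block, and 0 to 1 with a library left out. Lower members numbered 32 to 51 with a library left out (32 without YJ1206 library 3) and 0 with libraries 1 and 2 alone. Of all genes tested with a tumor library left out, 1111 of 15970 (without YJ1206 library 3) to 3076 of 15810 (without vehicle library 2) were lower. The tumor median was -0.468 with TPM + 0.1. Of the other pathway genes, 0 to 1 were higher and 31 to 74 were lower with a library left out (31 without vehicle library 3, 32 without YJ1206 library 3), and 0 were lower with libraries 1 and 2 alone. The replicate block gave 36 higher and 12 lower members in cells and 44 lower in tumors. Of all genes tested, it called 4425 higher and 4480 lower of 11826 in cells. In tumors it called 1550 higher and 1927 lower of 15558. For the difference between experiments, totals gave 4 members above and 39 below and turned Nop10 to 0.0763 and Wdr12 to 0.172, and Nhp2 ranged from -0.0176 to 0.114 with a library left out. In cells the counts of members called stayed within 35 to 36 higher and 11 to 12 lower with a library left out. Of the 11900 to 12269 genes tested in those fits, 4308 to 4407 were higher and 4314 to 4418 lower. The causes of these shifts were not tested, except that dropping libraries leaves fewer samples. Of the 50 lower calls in tumors, 31 held in every fit without 1 library. The levels of these genes lay far above 3 counts, and whether depth affected the calls was not tested. Each group holds only 3 libraries, which limits the precision.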
